A study of Gallus gallus with 54 samples.

Results

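Collagens, laminins and integrins were followed across chick retina in 54 RNA-seq libraries. Earlier results of these data were known when the families were chosen, and their genes were then taken by name. Symbols had to begin as a collagen chain (COL, number, A, number) or a laminin chain (LAMA, LAMB or LAMC with a number). Those of integrin subunits (ITGA or ITGB with a number or V, L, M, E or X) were also taken. This gave 65 of the 24599 genes and unnamed entries in the table, each represented by its transcript with the largest summed count. The rule took 36 collagen-type, 8 laminin and 21 integrin-type symbols. Of these, 60 encode subunits: 35 collagen, 8 laminin and 17 integrin genes. The other 5 share only the start of the symbol: COL4A3BP (a ceramide transfer protein), ITGB1BP1 and ITGB1BP2 (proteins that bind integrin tails), ITGB3BP (a centromere protein) and ITGBL1 (a secreted protein with integrin-like repeats). COL2A1, the main collagen of vitreous and cartilage, COL4A4, a type IV chain, and LAMA5 were not analysed here.

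Collagens are triple-helical proteins of the extracellular matrix, and laminins are cross-shaped trimers of an alpha, a beta and a gamma chain. Type IV collagen and laminin form the sheets of basement membranes, such as the inner limiting membrane of the retina, Bruch's membrane and the sheath of every blood vessel. Integrins are alpha-beta receptor pairs through which cells hold on to that matrix. The avian retina has no blood vessels of its own and is supplied by the choroid behind it and by the pecten, a pigmented vascular fold that stands on the optic nerve head.

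All birds were male White Leghorn chicks, reared for 6 days with 12 h of light a day and collected at 7 days of age for the 4 h groups and 8 days for the 24 h groups. At each time there were untreated birds, birds under form-deprivation myopia (FDM, a translucent diffuser that makes the eye elongate), FDM with an injection into the vitreous of atropine or pirenzepine (muscarinic antagonists), ADTN (a dopamine agonist) or TPMPA (a GABA-C antagonist), and birds in recovery, whose diffuser was removed after 3 days. The 24 h drug groups had a repeat injection 4 h before collection, and no vehicle-injected group is used here, so drug and injection form 1 contrast with FDM. Groups held 4 libraries, except untreated at 24 h and recovery at 4 h with 3, and the sources used here do not say that each library is a separate bird, so p-values measure the spread between libraries, which may be technical.

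The libraries held 7.40 M to 24.8 M counts (M, 1e6) over the chosen transcripts, with a median of 14.8 M. Retinal neuron markers, 11 genes passing the filter, summed to between 2270 and 3980 CPM (counts per M counts of the library, TMM-scaled) in every library. Markers of other cells were present at uneven levels. The summed level of 15 vessel markers ran from 118 to 601 CPM, that of 10 mural cell markers from 23.3 to 680 CPM, and that of 12 pigment epithelium markers from 380 to 1890 CPM. Much of the vessel sum is PODXL (mean 109 CPM, lowest 79.5) and ESAM (mean 40.4, lowest 26.4). Other vessel markers, such as CDH5 and VWF, fell to 0 CPM in the lowest library. In whole tissue, fewer cells of a type and less RNA per cell cannot be told apart.

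Per kilobase of the transcript, the highest levels belonged to integrin beta subunits and to fibrillar collagens. Mean levels over the 54 libraries were 47.5 CPM per kilobase for ITGB5 and 44.8 for ITGB1, the partner of most alpha subunits. ITGB8, a partner of ITGAV, stood at 39.1 CPM per kilobase, and ITGAV itself led the alpha subunits with 36.6. ITGA7, a laminin receptor of muscle, was the lowest alpha subunit with 0.850, and ITGB6, an epithelial partner of ITGAV, the lowest beta subunit with 0.139.

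Among fibrillar collagens, COL11A1 had 42.0, COL3A1 34.0 and COL5A1 26.7 CPM per kilobase, whereas COL1A1, a chain of the main collagen of skin, bone and sclera, had 0.449 and was at 0 counts in 23 libraries. Its partner chain COL1A2 had 1.69. The chosen COL1A1 transcript has 1818 bases, on a sequence outside the numbered chromosomes, against 4950 bases for COL1A2 on chromosome 2. Whether the COL1A1 model is complete was not tested, so its low counts need not mean a low level. COL9A3 led the collagens that sit on fibril surfaces (FACIT collagens) with 29.5 CPM per kilobase, and COL22A1 was the lowest of those with 0.749. The 5 type IV chains analysed here lay between 1.17 (COL4A3) and 5.28 (COL4A1). COL18A1, a basement membrane proteoglycan and the source of endostatin, had 11.1, and its relative COL15A1 had 0.159.

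Type VI collagen, a beaded filament, ran from 0.569 (COL6A3) to 9.38 CPM per kilobase (COL6A1). Type VIII, a network collagen of Descemet's and Bruch's membranes, was led by COL8A1 with 10.5, against 0.553 for COL10A1, a cartilage collagen. Among the chains that span the cell membrane, COL25A1 had 10.9 and COL17A1, a component of hemidesmosomes, 0.220. COL26A1 had 2.47 and COL28A1 0.617.

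The laminin chains were uneven. LAMC1, the gamma chain shared by most laminins, had 21.4 CPM per kilobase, LAMA1 10.4 and LAMB2 6.35. LAMA2, the muscle and vessel alpha chain, had 1.18 and LAMB4 0.143. LAMB3 (69 counts in all) and ITGB1BP2 (41 counts) did not pass the filter on low counts, which left 63 genes to test. Several transcript models are short for their gene (1236 bases for COL3A1), so levels per kilobase depend on the deposited models.

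**Figure D1:**
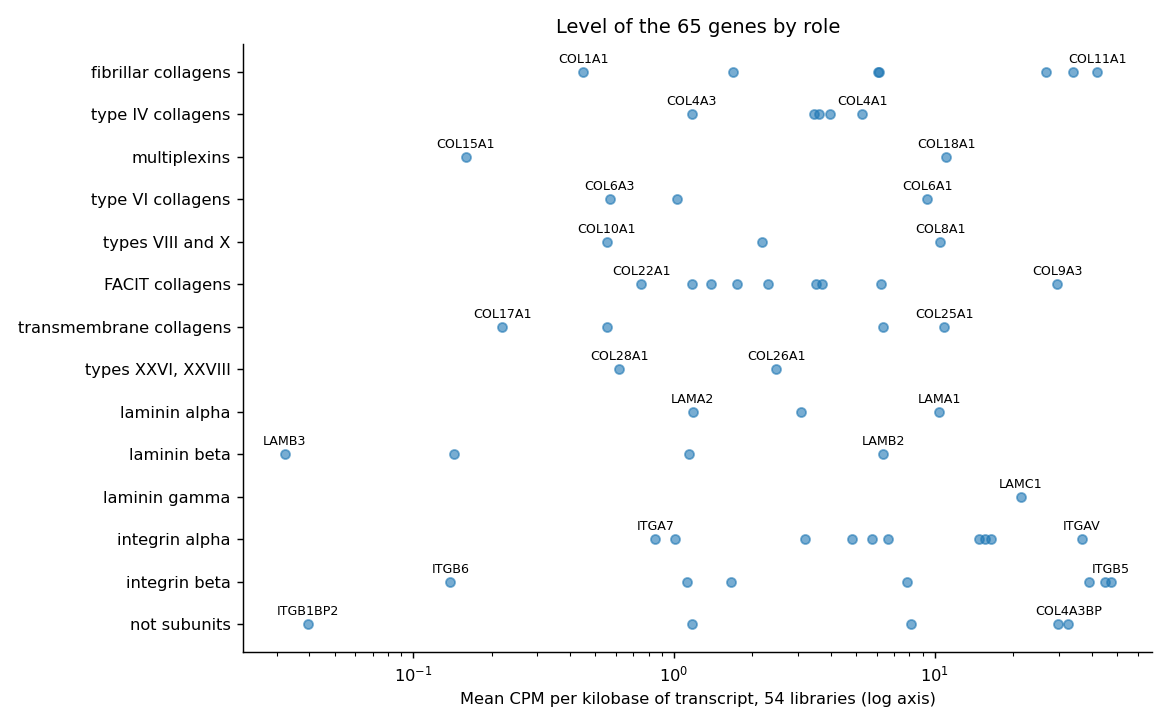
Mean level of each of the 65 genes over 54 libraries, in CPM per kilobase of transcript on a log axis, with 1 row per role and the highest and lowest gene of each row named. Integrin beta and alpha subunits and fibrillar collagens reach furthest to the right, with ITGB5 at 47.5 and COL11A1 at 42.0, and LAMB3 at 0.0322 lies furthest to the left.

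Levels of several basement membrane and fibril genes differed widely between libraries of 1 group. Of the 63 genes 9 had an SD of log2 CPM above 0.902, the ninth decile over all genes tested. That is near the share of all genes above this value by definition, so the count does not set the 63 apart. The SD of log2 CPM around the group means was 1.88 for COL1A1, 1.75 for COL4A1, 1.40 for COL4A2, 1.23 for COL1A2, 1.15 for ITGB6, 1.10 for LAMB1, 1.06 for COL28A1, 1.05 for COL18A1, 0.903 for COL8A2 and 0.899 for ITGB4. Those of COL1A1, COL4A1 and COL4A2 lay above the SD of 99.6%, 99.4% and 97.9% of all genes tested. ITGB5, with 0.131, lay above only 15.3%. COL1A1 was at 0 counts in 23 libraries and ITGB6 in 5, and the SDs of such low genes are limited by depth.

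COL4A1 shows how the libraries fell out. In TPMPA at 4 h its level was 152, 2.69, 2.72 and 2.51 CPM in replicates 1 to 4. In pirenzepine at 24 h it was 100 CPM in replicate 1 and 3.07, 3.32 and 2.34 in the others. In recovery at 4 h it was 5.55, 109 and 7.70 CPM. A single library therefore stood far above the rest of its group in each of the 3 cases, and in ADTN at 4 h, with 117, 111, 114 and 12.0 CPM, a single library stood far below.

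The level of COL4A1 followed the vessel markers. A vessel score, the mean log2 CPM of 15 endothelial markers that include none of the 65 genes, ran from -0.839 to 4.27, with a gap of 0.773 between the 27 libraries up to 1.11 and the 27 libraries from 1.88. COL4A1 lay between 1.51 and 8.01 CPM in the 27 lower-score libraries and between 11.4 and 152 CPM in the 27 higher-score libraries, with no overlap. COL4A2, the chain that pairs with COL4A1, ran from 1.00 to 9.12 CPM in the lower and from 7.02 to 70.5 CPM in the higher set, which overlap at their edges. COL18A1 ran from 7.91 to 23.8 CPM and from 14.4 to 129 CPM.

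Across all 54 libraries, 24 of the 63 genes rose with the vessel score and 0 fell. The test was the slope on the score in an edgeR quasi-likelihood model that also held the 14 group means, so it compares libraries within groups; p-values were adjusted over all 15746 genes tested. Of all genes, 5.61% rose and 1.72% fell with the score, against 38.1% of the 63. The median slope was 0.08 for the 63 genes and -0.0013 for all genes, in log2 units per unit of score. Of the 15 markers that make up the score 13 rose with it, and PODXL and ESAM did not pass.

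All 5 type IV chains analysed rose, though the COL4A3 call was lost without 1 library and with replicate number as a block. The slope was 1.13 ± 0.050 (SE) for COL4A1 (adjusted p = 7.822e-22), 0.81 ± 0.057 for COL4A2 (adjusted p = 5.669e-15), 0.43 ± 0.053 for COL4A5, 0.35 ± 0.051 for COL4A6 and 0.25 ± 0.067 for COL4A3. COL18A1 rose by 0.64 ± 0.053 and the other multiplexin, COL15A1, had 0.11 ± 0.090 (adjusted p = 0.4966). A slope of 1 means that the level rises by 1 log2 unit with each unit of the score.

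Of the laminins, 5 of the 7 tested rose. LAMB1, a beta chain of early and vascular laminins, had the steepest slope at 0.66 ± 0.063 (adjusted p = 2.470e-11). LAMA2 had 0.24 ± 0.038, LAMC1 0.23 ± 0.034, LAMB2 0.19 ± 0.023 and LAMA4, the alpha chain of vessel laminin, 0.17 ± 0.025. LAMA1, with 0.04 ± 0.033 (adjusted p = 0.5444), did not pass, nor did LAMB4 with -0.19 ± 0.086.

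Among fibrillar collagens 4 of 7 rose: COL1A1 by 1.51 ± 0.20 (a value that rests on 699 counts over all libraries), COL1A2 by 0.69 ± 0.083, COL5A2 by 0.15 ± 0.029 and COL5A1 by 0.08 ± 0.026. The COL5A1 call was lost in 21 of 54 fits that each left out 1 library (adjusted p up to 0.1523) and in 7 of 10 other settings, with a change of sign in 1 of these. The slope of COL3A1 was -0.02 ± 0.026 (adjusted p = 0.7603), and its level was 30.4 to 59.3 CPM in the lower-score and 27.5 to 56.7 CPM in the higher-score libraries. COL6A3 and COL6A2 rose, COL6A1 did not pass (adjusted p = 0.1098), and 0 of the 9 FACIT collagens passed.

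Of the 17 integrin subunits 5 rose. ITGB4, the partner of ITGA6 in hemidesmosomes, had a slope of 0.47 ± 0.059 (adjusted p = 8.933e-08). ITGB2, the beta subunit of leukocytes, had 0.15 ± 0.041, ITGA9, a tenascin receptor subunit, 0.14 ± 0.041, ITGA1, a collagen and laminin receptor, 0.13 ± 0.032, and ITGB1 0.07 ± 0.013. ITGA6, whose partner ITGB4 rose, had 0.07 ± 0.022 with an adjusted p of 0.06176. ITGAV, ITGB8, ITGB5, ITGA2 and ITGA4 did not pass, with slopes between -0.03 and 0.06. The last 2 that rose were the membrane collagen COL23A1 and COL26A1, with 0.15 ± 0.045 and 0.18 ± 0.050.

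Of the 24 genes that rose, 17 kept the call whichever library was left out. COL5A1 apart, the 6 others lost it without 1 to 5 libraries. ITGA9 lost it without atropine at 4 h replicate 3, TPMPA at 4 h replicate 1, recovery at 4 h replicate 2 or ADTN at 24 h replicate 2 or 4 (0.11 to 0.13, adjusted p up to 0.1032). COL23A1 lost it without atropine at 4 h replicate 3 or ADTN at 24 h replicate 2 or 4 (adjusted p up to 0.08569). COL26A1 (0.12, adjusted p = 0.1548) and COL4A3 (0.21, adjusted p = 0.06160) lost it without TPMPA at 4 h replicate 1. ITGA1 (0.11, adjusted p = 0.05509) and ITGB2 (0.13, adjusted p = 0.08570) lost it without pirenzepine at 24 h replicate 1. Among 10 other settings COL26A1 lost the call in 4 and ITGA9 in 4, with a change of sign in 1 for ITGA9. With replicate number as a block in the model, COL4A3 (0.21, adjusted p = 0.1285) and COL23A1 (0.15, adjusted p = 0.1177) also lost it.

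The rise was seen in the higher-score libraries for most but not all of the genes that rose. In a fit of the 27 higher-score libraries alone 15 genes rose, among them COL4A1, COL4A2, COL4A3, COL4A5, COL4A6, COL18A1, LAMB1 and ITGB4, where 2.32% of all genes were called in either direction. COL1A1, COL5A1, COL5A2, COL6A2, COL6A3, COL26A1, ITGA1, ITGA9 and ITGB2 did not pass there. Their adjusted p-values in that fit ran from 0.08687 (COL5A2) to 0.9744 (ITGA9). In the 27 lower-score libraries 0 of the 63 passed (0.0444% of all genes, or 7, did), though COL1A1 has no result in that fit. The slope of COL4A1 there was 0.39 (adjusted p = 0.9795). Vessel markers summed to 118 to 187 CPM in that set, with some markers down to 0, so part of the score rests on low counts. The difference between the sets was not tested. Markers of other cells moved with the score as well: 6 of 10 mural, 6 of 9 leukocyte, 3 of 9 fibroblast, 2 of 4 erythrocyte, 1 of 8 cartilage, 1 of 12 pigment epithelium, 1 of 6 ciliary and iris, 1 of 10 Mueller glia, 0 of 7 oligodendrocyte and 0 of 11 retinal neuron markers rose. Their part in the slopes of the matrix genes was not tested.

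**Figure D2:**
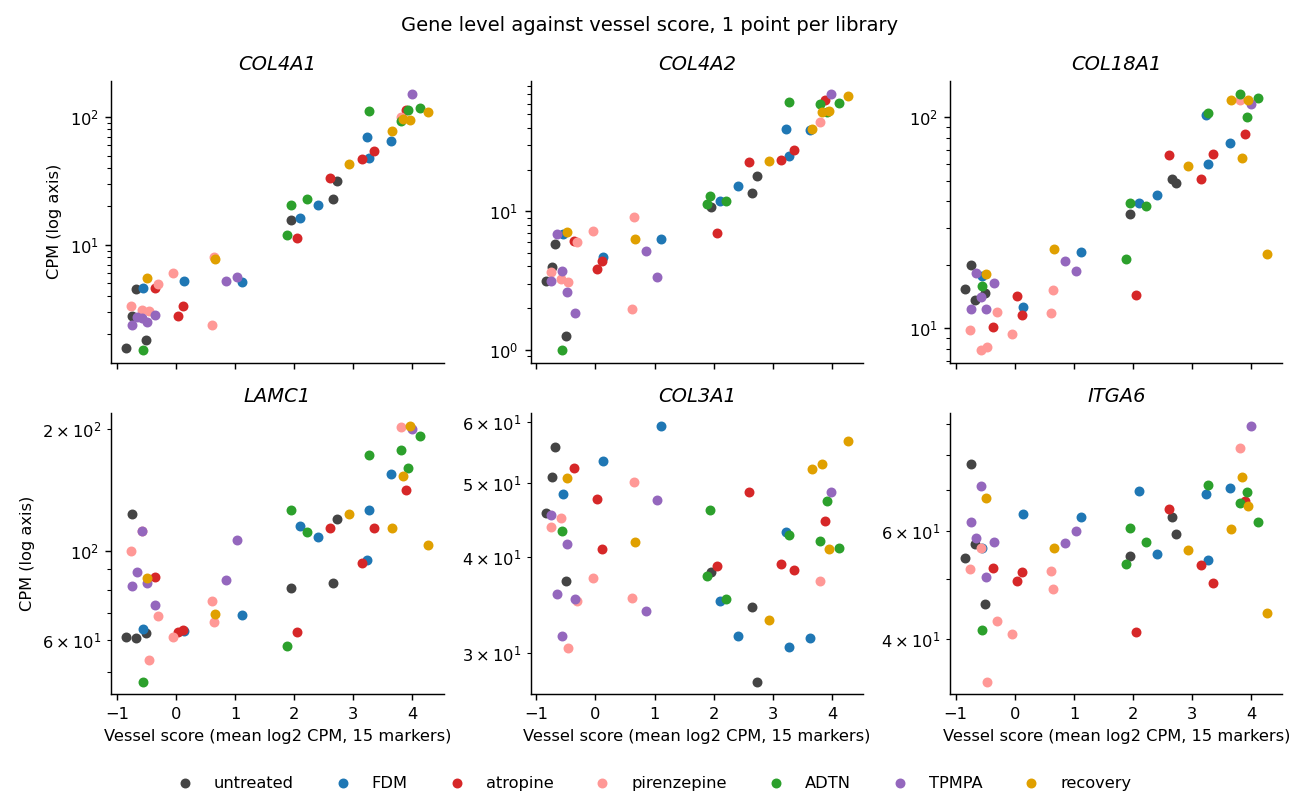
Level of 6 genes (CPM, log axes) against the vessel score (mean log2 CPM of 15 markers), with 1 point per library coloured by condition, both times together. COL4A1, COL4A2 and COL18A1 climb to the right of the gap between 1.11 and 1.88, LAMC1 does so less steeply, and COL3A1 and ITGA6 span about the same range on both sides.

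The library with the highest vessel score, recovery at 4 h replicate 2 (4.27), did not carry all of these genes. It held the highest level of COL1A2 (123 CPM), COL1A1 (16.1 CPM), LAMB1 (44.6 CPM), COL14A1 (75.0 CPM), LAMA2 (47.3 CPM) and COL5A2 (106 CPM) of all libraries. The highest mural (680 CPM), fibroblast (221 CPM) and cartilage (311 CPM) marker sums and the highest pigment epithelium marker score (5.91) were also in this library. Its COL18A1 level was 22.4 CPM, within the range of the other 2 libraries of its group, the higher of which had 23.8, and its ITGB4 level was 16.7 CPM, between 12.8 and 19.9. The next highest COL1A2 level was 65.2 CPM, in recovery at 24 h replicate 3.

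COL4A1 and COL4A2 were also correlated in each set of libraries, in values that keep part of the shift between the sets. In the genome build galGal5 they lie head to head on chromosome 1, COL4A1 on the minus strand from 138793510 to 138903918 and COL4A2 on the plus strand from 138904303 to 139053712, with 384 bases between them. They are 1 of 6 pairs of the chosen genes that lie within 100000 bases of each other. Because the libraries fall into separate sets by vessel score, correlations of log2 levels were taken within each set, which makes 12 tests. Levels were deviations from the mean of the whole group, so in groups with libraries in both sets the shift between sets stays in r. The permutations shuffled libraries within a group and set, which leaves that shift in place. For COL4A1 and COL4A2 Pearson's r was 0.888 over the 27 lower-score libraries (permutation within groups, p = 0.00737, adjusted 0.0442; Spearman's rho 0.857, p = 0.00793) and 0.835 without the 2 libraries farthest from the median. Over the 27 higher-score libraries r was 0.985 (permutation p = 3e-05, adjusted 0.00036; rho 0.979, p = 5e-05) and 0.982 without the 2 farthest. The other 5 pairs did not pass in either set, among them ITGA1 and ITGA2, neighbours on chromosome Z with 18058 bases between them, whose r was 0.0807 and -0.036. The values of a pair share the library and its depth.

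A smaller set, which shares only COL4A3 with the set that rose with the vessel score, followed pigment epithelium markers. The pigment score, the mean log2 CPM of 12 markers such as RPE65 (1 of them, RLBP1, is also in the Mueller glia list), ran from 1.32 to 5.91. This slope was added after the data were seen, and it was fitted beside the vessel score. Of the 63 genes 7 rose with it (11.1%) and 0 fell, where 2.36% of all genes rose and 0.902% fell.

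COL8A1 had the steepest slope, 0.94 ± 0.051 (adjusted p = 3.300e-19), and COL8A2 had 0.85 ± 0.090 (adjusted p = 4.897e-10). COL8A1 ran from 6.52 to 41.2 CPM in the 18 libraries with the lowest pigment scores and from 43.3 to 106 CPM in the 18 with the highest, with no overlap. COL8A2 ran from 0.518 to 3.61 CPM and from 4.05 to 10.8 CPM, also with no overlap. ITGBL1 had a slope of 0.65 ± 0.062, and COL4A3, a chain of specialised basement membranes, 0.44 ± 0.095. ITGB3 and ITGB8, both partners of ITGAV, had 0.34 ± 0.080 and 0.29 ± 0.069, and COL3A1 0.22 ± 0.031. COL8A1, COL8A2 and ITGBL1 also passed in the lower-score and in the higher-score libraries taken alone (1.01% and 0.881% of all genes called), and the other 4 passed in neither. All 7 kept the call whichever library was left out. Of the other marker lists, 0 of 15 vessel, 0 of 10 mural, 0 of 4 erythrocyte, 0 of 6 ciliary and iris, 1 of 9 fibroblast, 1 of 8 cartilage, 1 of 9 leukocyte, 1 of 10 Mueller glia and 3 of 7 oligodendrocyte markers rose with the pigment score, and 2 of 11 retinal neuron markers fell. The cartilage marker was CHAD, chondroadherin, with a slope of 1.25 ± 0.052 (adjusted p = 2.210e-22), steeper than that of COL8A1, and the leukocyte marker was CSF1R with 0.33 ± 0.033. The part of these cells in the slopes was not tested.

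**Figure D3:**
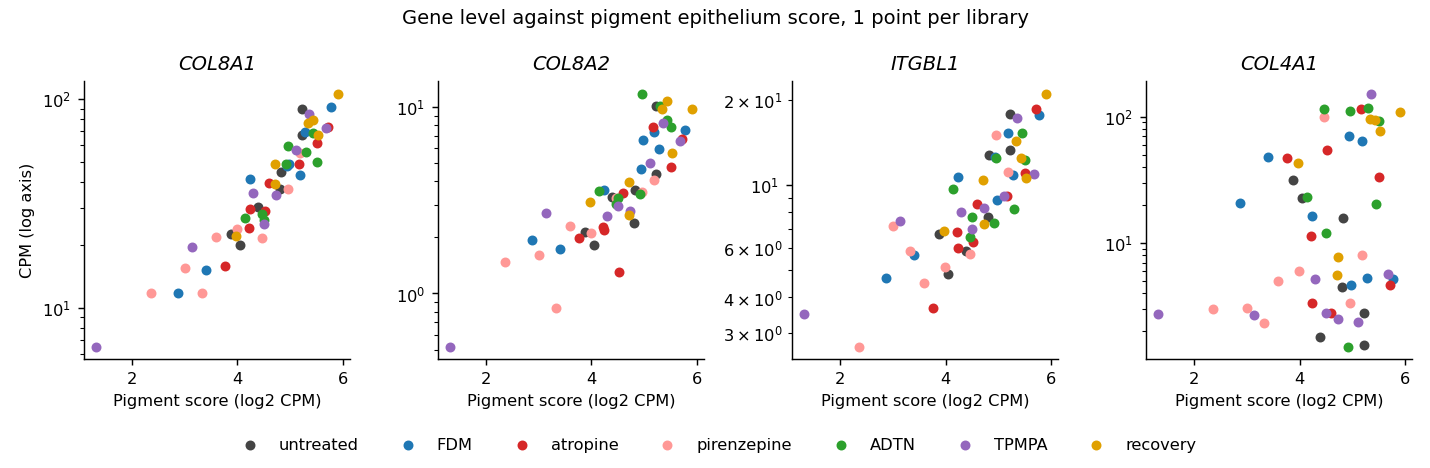
Level of COL8A1, COL8A2, ITGBL1 and COL4A1 (CPM, log axes) against the pigment epithelium score (mean log2 CPM of 12 markers), with 1 point per library coloured by condition. COL8A1 rises from 6.52 CPM at a score of 1.32 to 106 CPM at 5.91, and COL4A1 spans 1.57 to 152 CPM among the 18 libraries with the highest scores.

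**Figure D4:**
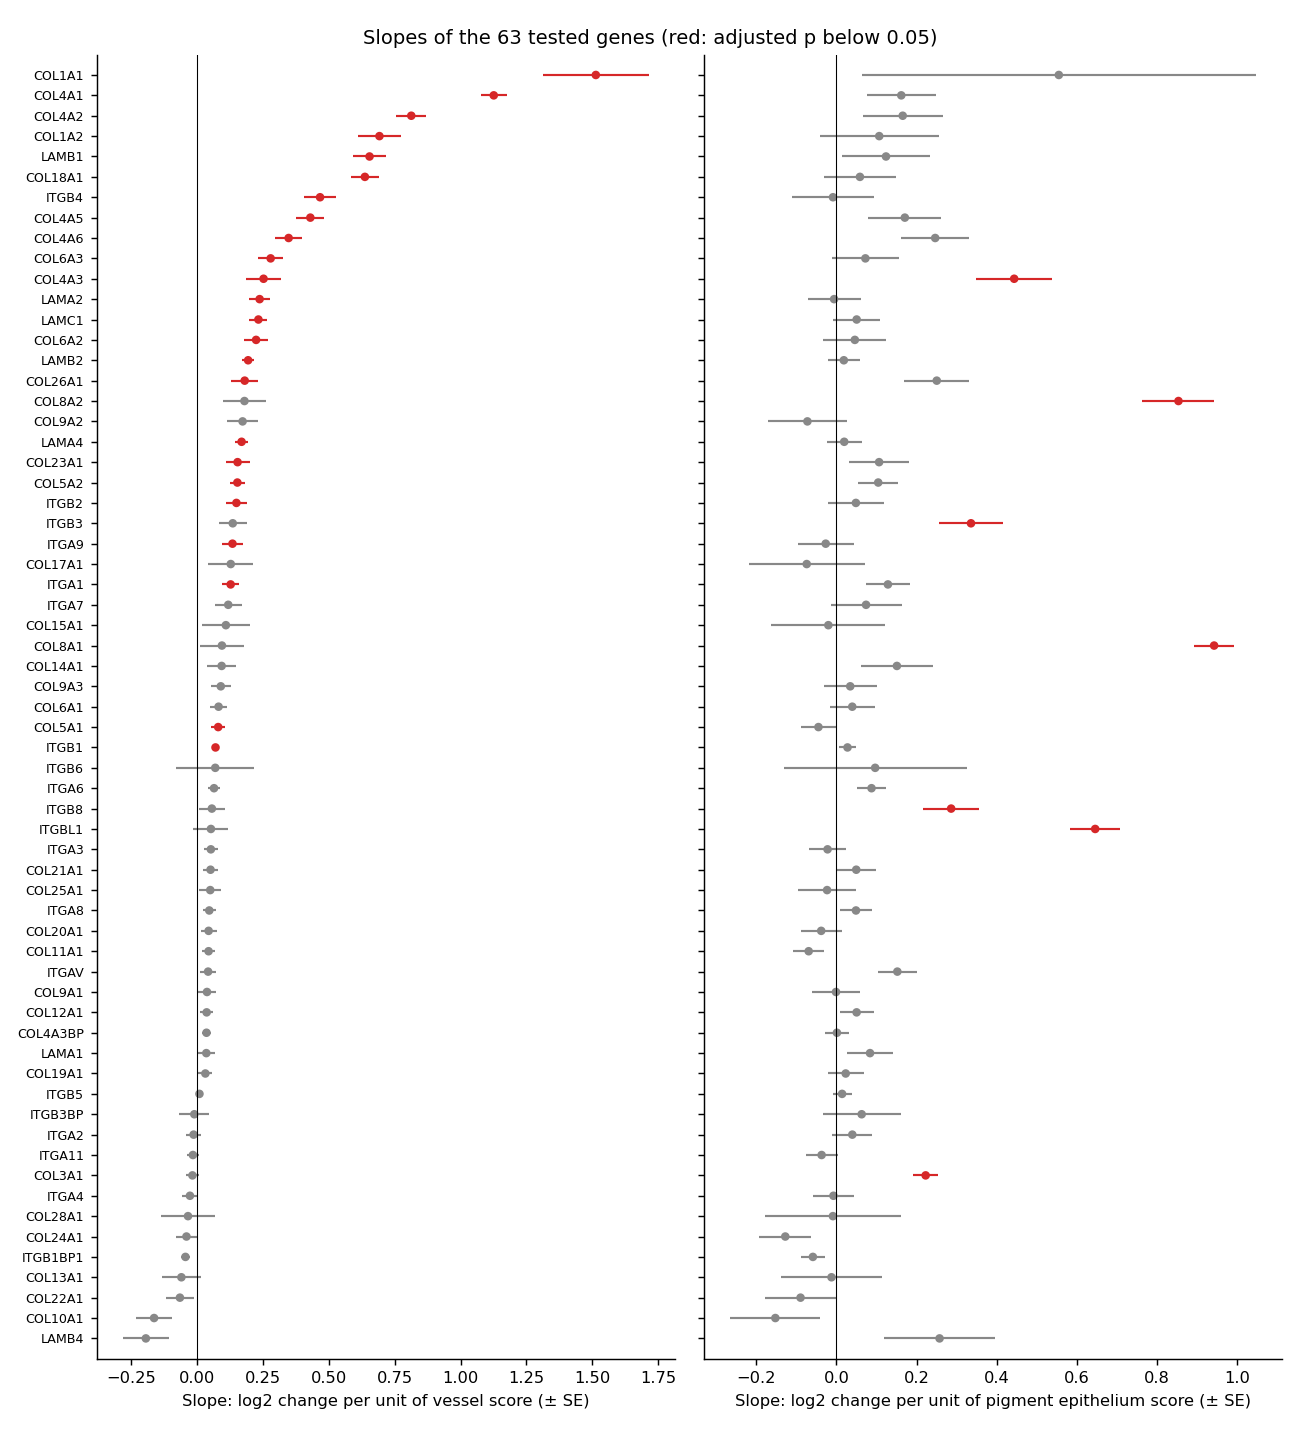
Slopes of the 63 tested genes on the vessel score (left) and on the pigment epithelium score beside it (right), in log2 units per unit of score with bars of ± 1 SE; red marks an adjusted p below 0.05. On the left 24 genes are red, with COL1A1, COL4A1 and COL4A2 at the top; on the right 7 are red, with COL8A1 at 0.94.

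The vessel score was unevenly spread over the groups. All libraries of ADTN at 4 h, FDM at 24 h and recovery at 24 h were in the higher-score set, and all of pirenzepine at 4 h, TPMPA at 24 h and untreated at 24 h in the lower. Group means of COL4A1 followed this, from 2.05 ± 0.636 CPM (SD, n = 3) in untreated at 24 h to 88.6 ± 51.1 CPM (n = 4) in ADTN at 4 h. Group means of COL9A1, a FACIT collagen, stayed between 7.70 ± 1.33 and 11.1 ± 2.27 CPM, and those of ITGB1 between 146 ± 15.3 and 185 ± 15.6 CPM.

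Of the other genes followed in every group, LAMA1 ran from 75.9 ± 18.1 CPM in atropine at 24 h to 119 ± 28.1 CPM in TPMPA at 4 h. LAMA4 ran from 23.8 ± 1.04 CPM in TPMPA at 24 h to 41.7 ± 4.31 CPM in recovery at 24 h. The lowest group mean of LAMC1, ITGA1, ITGA6, ITGAV and ITGB8 was that of pirenzepine at 4 h in each case: 62.5 ± 6.86 CPM for LAMC1, 7.96 ± 1.26 for ITGA1, 41.4 ± 5.88 for ITGA6, 94.3 ± 34.6 for ITGAV and 89.1 ± 44.4 for ITGB8. None of these 5 passed the test against FDM at 4 h.

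Diffuser wear against untreated called 0 of the 63 genes at 4 h and 0 at 24 h with edgeR, where 0.171% and 0% of all genes were called; at an unadjusted p under 0.05 there were 3 and 10 of the 63 (4.76% and 15.9%, against 6.97% and 7.21% of all genes), and DESeq2 called 0 and 0. COL4A1 was 47.5, 64.4, 16.3 and 70.1 CPM under FDM at 24 h and 2.77, 1.81 and 1.57 CPM in untreated birds, so the groups did not overlap. The log2 difference was 4.56 ± 1.63 with an adjusted p of 0.5908. Vessel markers summed to 194 to 357 CPM in these FDM libraries and to 148 to 160 CPM in the untreated ones, and with only these 2 groups in the fit COL4A1, COL4A2 and COL18A1 were called higher (0.612% of all genes called in that fit).

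With atropine against FDM at 4 h 1 of the 63 genes rose, ITGA2, the alpha subunit of the collagen and laminin receptor alpha2-beta1; of all genes 1.17% were called in that comparison, 0.934% higher and 0.241% lower. ITGA2 (chromosome Z, 15862498 to 15924378, plus strand) was 40.0, 38.6, 41.3 and 38.0 CPM under FDM at 4 h and 74.5, 81.8, 96.8 and 55.6 CPM with atropine. All 4 atropine libraries were above all 4 FDM libraries. The log2 change was 0.97 ± 0.20, with an adjusted p of 0.004458 by edgeR's quasi-likelihood test, and the gene passed with any 1 of the 8 libraries left out (0.84 to 1.09). All ADTN libraries (51.1, 51.5, 69.8 and 49.4 CPM) and all TPMPA libraries (47.5, 55.1, 42.8 and 59.3 CPM) at 4 h were also above all FDM libraries. Those changes were 0.49 and 0.37 and did not pass the same test (adjusted p = 0.2255 and 0.3781). The separation from FDM is therefore not particular to atropine.

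With pirenzepine against FDM at 4 h ITGA2 rose and ITGB5 fell, 2 of the 63, where 2.09% of all genes were called, 1.39% higher and 0.699% lower. ITGA2 was 41.2, 56.4, 97.8 and 84.3 CPM with pirenzepine; the lowest of these lies just under the highest FDM library. The log2 change was 0.82 ± 0.20 (adjusted p = 0.01364). ITGB5, a vitronectin receptor subunit, was 147, 144, 144 and 140 CPM under FDM and 138, 111, 95.2 and 106 CPM with pirenzepine, with no overlap. It fell by 0.35 on the log2 scale (SE 0.094, adjusted p = 0.03348). With atropine at 4 h ITGB5 was 133, 123, 123 and 121 CPM, also below all FDM libraries, though it did not pass there. Atropine and pirenzepine, compared after the data were seen, differed in ITGB5 by 0.15 (95% interval -0.04 to 0.34) at 4 h. The ITGA2 call was lost without FDM replicate 4 (0.80, adjusted p = 0.05308), pirenzepine replicate 3 (0.62, 0.09558) or replicate 4 (0.72, 0.05328). The ITGB5 call was lost without any 1 of the libraries other than pirenzepine replicate 1, with values from -0.27 to -0.36 and adjusted p-values from 0.06474 to 0.1503. Both calls were lost with only these 2 groups in the fit, where ITGA2 had 0.82 (adjusted p = 0.2026) and ITGB5 -0.36 (adjusted p = 0.1722). That fit called 2 other genes of the 63 lower, ITGA1 and LAMA1, and 0.906% of all genes. With the vessel and pigment scores as terms ITGB5 had -0.33 (adjusted p = 0.06298).

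At 24 h, with a repeat injection 4 h earlier, ITGA2 was again higher with pirenzepine than under FDM, and no other of the 63 passed; of all genes 1.63% were called, 1.23% higher and 0.400% lower. ITGA2 was 35.8, 34.2, 45.2 and 52.7 CPM under FDM at 24 h and 47.0, 69.5, 76.7 and 87.5 CPM with pirenzepine, where 1 pirenzepine library lies within the FDM range. The log2 change was 0.74 ± 0.19 (adjusted p = 0.03228). With the vessel score as a term the value was 0.71 and the adjusted p 0.06550, and with only these 2 groups in the fit 0.76 and 0.1403. The call was also lost without any of FDM replicates 1, 2 and 3 or pirenzepine replicates 2, 3 and 4 (0.62 to 0.78, adjusted p from 0.06023 to 0.1906). ITGB5 was 152, 102, 114 and 120 CPM with pirenzepine and 145, 162, 147 and 151 CPM under FDM, a log2 change of -0.31 ± 0.094 (adjusted p = 0.08544).

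Atropine at 24 h called 0 of the 63 genes with edgeR (0.0953% of all genes; 4 of the 63, or 6.35%, at an unadjusted p under 0.05, against 13.3% of all genes; 0 with DESeq2). ITGA2 was 45.0, 75.9, 51.6 and 63.3 CPM, a log2 change of 0.49 ± 0.19 from FDM with an adjusted p of 0.2595. Whether the change at 24 h differed from that at 4 h was tested directly: for ITGA2 the difference was -0.48 ± 0.28 with atropine (adjusted p = 0.6262) and -0.08 ± 0.28 with pirenzepine (adjusted p = 0.9759). Atropine and pirenzepine, compared with each other after the data were seen, differed in ITGA2 by 0.15 (95% interval -0.24 to 0.53) at 4 h and by -0.25 (-0.64 to 0.14) at 24 h. These intervals leave room for a difference in either direction.

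The drug comparisons share the FDM libraries of their time. Set against untreated birds in place of FDM, also a comparison added later, ITGA2 rose with atropine at 4 h by 0.84 ± 0.19 (adjusted p = 0.01522; 0.832% of all genes called) and with pirenzepine at 24 h by 0.81 ± 0.21 (adjusted p = 0.04099; 1.43%). With pirenzepine at 4 h the value was 0.70 ± 0.19 (adjusted p = 0.05795; 1.31%). FDM and untreated birds differed in ITGA2 by -0.12 ± 0.20 at 4 h and 0.07 ± 0.21 at 24 h (adjusted p = 0.9690 and 0.9501).

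The slope of ITGA2 on the vessel score was -0.01 ± 0.030 (adjusted p = 0.8534). The Mueller glia marker GFAP rose in the 4 h comparisons of atropine (2.02 ± 0.41 on the log2 scale) and pirenzepine (2.11 ± 0.42) with FDM, and also in those of ADTN (1.82 ± 0.41) and TPMPA (1.70 ± 0.41). Other Mueller glia markers went the other way with atropine at 4 h, where GLUL (-0.60 ± 0.14) and AQP4 (-0.38 ± 0.089) were called lower. SOX9 was called higher with TPMPA at 4 h (0.82 ± 0.19). The whole list of 10 Mueller glia markers summed to 2490 to 3430 CPM with atropine, 2610 to 3660 with pirenzepine and 2920 to 4220 under FDM at 4 h. SLC1A3 of that list was called higher with pirenzepine at 24 h (0.49 ± 0.12). Of the mural markers, KCNJ8 rose with pirenzepine at 4 h (2.22 ± 0.61) and 24 h (2.89 ± 0.61). It was the only 1 of the 10 called with pirenzepine at 24 h, where 5 of 10 were positive (median change 0.062). CNN1 rose with pirenzepine at 4 h (1.68 ± 0.37) and MCAM with TPMPA at 4 h (1.34 ± 0.33). Atropine at 4 h called 0 of the 10 mural markers. Mural sums at 4 h were 38.0 to 69.9 CPM with atropine, 38.7 to 64.6 with pirenzepine and 23.3 to 39.4 under FDM. At 24 h they were 69.2 to 88.3 CPM with pirenzepine and 35.1 to 132 under FDM. The calls of single markers named here were not checked by leaving out libraries. Of other lists at 4 h, MATN3 (cartilage) was called higher with atropine (2.36 ± 0.57) and pirenzepine (2.52 ± 0.58). It was the only 1 of 8 cartilage markers called, and 6 were positive with atropine and 4 with pirenzepine. ARR3 (retinal neuron) was called lower with atropine (-0.60 ± 0.16) and SLC4A11 (ciliary and iris) lower with pirenzepine (-0.67 ± 0.18). The part of these cells in the ITGA2 result was not tested.

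**Figure D5:**
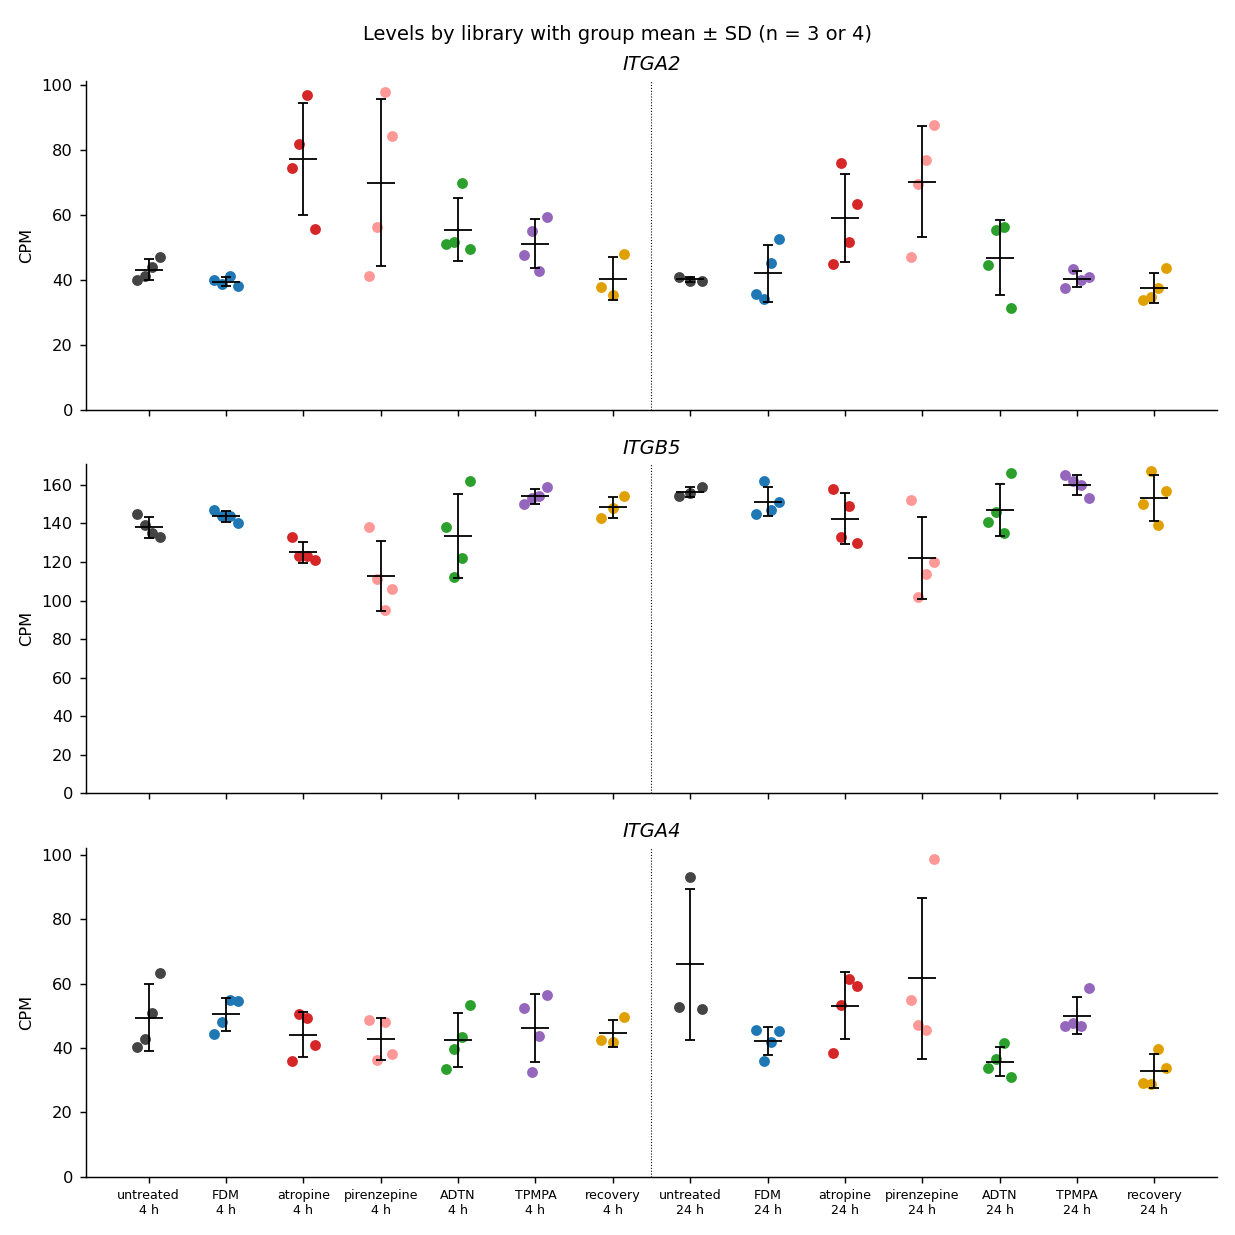
Level of ITGA2, ITGB5 and ITGA4 in CPM in every library of the 14 groups (4 h left of the dotted line, 24 h right), with the group mean and bars of ± 1 SD (n = 3 or 4). ITGA2 is highest in the atropine and pirenzepine groups, reaching 97.8 CPM, ITGB5 is lowest in pirenzepine at 4 h, down to 95.2 CPM, and ITGA4 in untreated birds at 24 h has 1 library at 93.1 CPM.

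ADTN against FDM called 0 of the 63 genes at 4 h with edgeR (0.756% of all genes, 0.419% higher and 0.337% lower) and 0 at 24 h (0.0381%, with 0.0127% higher and 0.0254% lower). At an unadjusted p under 0.05 there were 16 of the 63 at 4 h (25.4%, against 14.7% of all genes) and 3 at 24 h (4.76%, against 7.86%), and DESeq2 called 1 at 4 h (ITGB4; 2.04% of all genes) and 0 at 24 h. ITGB4 was 96.0, 119, 63.6 and 20.8 CPM with ADTN at 4 h and 20.8, 7.81, 10.1 and 14.1 CPM under FDM, so that the groups meet at 20.8 CPM. The log2 difference was 2.48 ± 0.67 with an adjusted p of 0.05774. Replicate 4, with the lowest ITGB4, also has the lowest vessel score of that group (1.88, the others 3.27 to 4.12). Without it 6 of the 63 were called higher: COL26A1, COL4A5, COL5A1, ITGB4, LAMB2 and LAMC1, where 3.11% of all genes were called. ITGA2 was 51.1, 51.5, 69.8 and 49.4 CPM with ADTN at 4 h, a log2 difference of 0.49 ± 0.20 with an adjusted p of 0.2255.

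TPMPA against FDM called 0 of the 63 genes at 4 h (0.470% of all genes, 0.413% higher and 0.0572% lower) and 0 at 24 h (0%) with edgeR and with DESeq2, and 3 and 13 at an unadjusted p under 0.05 (4.76% and 20.6%, against 14.5% and 11.7% of all genes). At 24 h all 5 type IV chains analysed had lower means than under FDM, from -0.65 to -3.62 on the log2 scale. All TPMPA libraries at that time had low vessel scores (-0.744 to 1.04) and all FDM libraries high ones (up to 3.63). With only these 2 groups in the fit 8 of the 63 were called lower, COL4A1, COL4A2, COL4A5, COL4A6, COL18A1, LAMA4, COL11A1 and COL9A3, where 1.94% of all genes were called. Group and vessel score cannot be told apart here.

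In recovery against untreated at 24 h 1 of the 63 genes fell, ITGA4, the alpha subunit of the fibronectin and VCAM1 receptor alpha4-beta1; of all genes 0.654% were called, 0.216% higher and 0.438% lower. ITGA4 (chromosome 7, 14373277 to 14404802, minus strand) was 52.9, 93.1 and 52.1 CPM in untreated birds at 24 h and 29.2, 28.7, 39.8 and 33.8 CPM in recovery, with no overlap. All libraries under FDM (45.6, 36.1, 42.0 and 45.3 CPM) and with ADTN (33.9, 36.5, 41.5 and 31.0 CPM) at 24 h also lay below the untreated ones. With edgeR, ADTN against untreated, a comparison added later, had -0.88 (adjusted p = 0.07496). FDM against untreated and recovery against FDM at 24 h called 0 of the 63 (0% and 1.17% of all genes). In recovery against untreated ITGA4 fell by 1.00 on the log2 scale (SE 0.21, adjusted p = 0.01053). Without untreated replicate 2, the library at 93.1 CPM, the value was -0.69 with an adjusted p of 0.2126, and without recovery replicate 1 or 2 it was -0.95 or -0.94 (adjusted p = 0.05201 or 0.06482). With the vessel score as a term it was -0.89 with an adjusted p of 0.1184.

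In the same comparison COL4A1 was 42.7, 94.5, 96.4 and 77.2 CPM in recovery and at most 2.77 CPM in untreated birds, a log2 difference of 5.21 ± 1.66 with an adjusted p of 0.1329. The groups differ in vessel score in every library. Other settings called more of the 63 in this comparison, ITGA4 lower in each case and the rest higher. DESeq2 called 5 (COL1A2, COL4A1, COL4A2, ITGA4 and ITGB4), where 2.06% of all genes were called. With only these 2 groups in the fit 7 were called (COL18A1, COL4A1, COL4A2, ITGA4, ITGB4, LAMA4 and LAMB1; 2.52% of all genes), and with the replicate block 6 (COL1A2, COL4A1, COL4A2, ITGA4, ITGB4 and LAMC1; 2.51%). The ITGA4 difference between 24 h and 4 h was -0.86 ± 0.30 (adjusted p = 0.4255).

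At 4 h recovery against untreated called 0 of the 63 with edgeR (0.0381% of all genes), 9 at an unadjusted p under 0.05 (14.3%, against 7.01% of all genes) and 3 with DESeq2 (COL14A1, COL1A2 and LAMA2; 0.203% of all genes). Recovery against FDM called 0 at 4 h (0.349% of all genes, 0.311% higher and 0.0381% lower) and 0 at 24 h (1.17%, with 0.457% higher and 0.711% lower) with edgeR, 8 and 3 at an unadjusted p under 0.05 (12.7% and 4.76%, against 9.25% and 13.3% of all genes), and 2 (COL14A1 and COL1A2; 0.610% of all genes) and 0 with DESeq2. COL1A2 was 2.54, 123 and 2.46 CPM in recovery at 4 h, 6.03, 3.23, 2.48 and 2.08 CPM in untreated birds and 5.67, 2.41, 1.37 and 3.49 CPM under FDM. Only replicate 2 of recovery lay outside the range of the other libraries of these 3 groups. Without recovery replicate 1 or 3, which leaves replicate 2 and 1 other library, 3 genes were called against untreated (COL14A1, COL1A2 and LAMA2; 0.200% and 0.320% of all genes).

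The median log2 difference over the 63 genes ran from -0.28 to 0.33 in the comparisons of 2 groups. It was 0.33 for ADTN against FDM at 4 h, with 45 of 63 genes positive, and 0.27 for recovery against untreated at 24 h, with 46 positive. It was -0.24 for TPMPA against FDM at 24 h, with 48 of 63 negative, -0.28 for atropine at 24 h, with 47 negative, and -0.21 for pirenzepine at 4 h, with 45 negative. In the other comparisons between groups at 1 time it lay between -0.086 (pirenzepine at 24 h) and 0.23 (recovery against untreated at 4 h). Over all genes tested the median of these comparisons stayed between -0.007 and 0.023. For the change at 24 h minus that at 4 h the median over the 63 genes reached -0.36 for TPMPA and -0.30 for ADTN, against -0.021 and 0.002 over all genes.

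Untreated birds at 24 h and at 4 h differed in 0 of the 63 genes with edgeR (0.0127% of all genes; 3 of the 63, or 4.76%, at an unadjusted p under 0.05, against 708 of all 15746 genes; 0 with DESeq2). For each of the 6 pairs of groups, the change at 24 h minus that at 4 h also called 0 of the 63 with edgeR, with 5 to 16 (7.94% to 25.4%) at an unadjusted p under 0.05, against 6.04% to 14.6% of all genes. All genes were called in 0.0635% for recovery against untreated and in 0% for the other 5. DESeq2 called 1 of the 63 there, ITGB4, lower for TPMPA (0.165% of all genes).

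The proteins that link integrins to the actin skeleton were followed as a list of 30 genes, 23 of them tested. With atropine at 4 h 4 of 23 rose, where 0.934% of all genes did, and 0 fell: TNS1 (tensin) by 1.42 ± 0.29, PXN (paxillin) by 0.68 ± 0.17, ACTN1 (alpha-actinin) by 0.52 ± 0.13 and LIMS2 (PINCH) by 0.52 ± 0.13 on the log2 scale. With pirenzepine at 4 h 4 rose, where 1.39% of all genes did, and 0 fell: TNS1 by 1.10 ± 0.29, PXN by 0.89 ± 0.17, RSU1 by 0.59 ± 0.15 and ACTN1 by 0.47 ± 0.13. With pirenzepine at 24 h 2 rose, TNS3 by 1.13 ± 0.16 and PXN by 0.68 ± 0.16, where 1.23% of all genes rose. TNS1 also rose with ADTN at 4 h by 1.30 ± 0.29 and with TPMPA at 4 h by 1.42 ± 0.29, and ACTN1 with ADTN by 0.55 ± 0.13. TNS1 and ACTN1 rose with the vessel score as well (slopes 0.13 ± 0.038 and 0.09 ± 0.014). With that score as a term TNS1 had 0.97 with ADTN (adjusted p = 0.1938) and ACTN1 0.32 (adjusted p = 0.2856), and LIMS2 had 0.45 with atropine (adjusted p = 0.09286); the other calls of this list held. Calls that held without any 1 of the 8 libraries compared were TNS1 with atropine (1.29 to 1.61), PXN with pirenzepine at 4 h (0.83 to 0.96) and TNS3 with pirenzepine at 24 h (0.93 to 1.23). The other calls of this list were each lost without any of 3 to 6 of the 8 libraries, with adjusted p-values up to 0.2009 and the direction kept. Group means of PXN at 4 h were 16.8 ± 1.51 CPM under FDM, 26.8 ± 2.82 with atropine and 31.1 ± 3.54 with pirenzepine (SD, n = 4).

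Other matrix proteins formed a list of 30 genes, 27 of them tested. FN1, fibronectin, rose with atropine at 4 h by 2.60 ± 0.64 and with pirenzepine at 4 h by 2.35 ± 0.64, from a mean of 64.2 ± 21.1 CPM under FDM to 391 ± 169 and 328 ± 181 CPM. These calls were lost without any of 5 and 7 of the 8 libraries (adjusted p up to 0.1174 and 0.1351), and the first also with the vessel score as a term (2.18, adjusted p = 0.07813). In both drug comparisons at 4 h 1 of the 27 genes rose, where 0.934% (atropine) and 1.39% (pirenzepine) of all genes did. NTN4, a netrin that binds laminin, fell with pirenzepine by 1.18 (SE 0.19) at 4 h and by 0.73 (SE 0.18) at 24 h, and FBN1, fibrillin, fell by 0.48 (SE 0.11) at 4 h, where 0.699% of all genes fell at 4 h and 0.400% at 24 h. The NTN4 call at 4 h held without any 1 library, and that at 24 h was lost without FDM replicate 2 or pirenzepine replicate 3 or 4 (adjusted p up to 0.2164) and with the vessel score as a term (-0.64, adjusted p = 0.06760). The FBN1 call was lost without FDM replicate 4 or pirenzepine replicate 2 (adjusted p up to 0.07398).

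TGFBI rose with ADTN at 4 h by 1.63 ± 0.42 (adjusted p = 0.04749), where 0.419% of all genes rose. It also rose with the vessel score (0.30 ± 0.036), and all 4 ADTN libraries but 1 of the 4 FDM libraries at 4 h are in the higher-score set. With the score as a term its difference was 0.85 (adjusted p = 0.2726), and the call was lost without any of 6 of the 8 libraries (adjusted p up to 0.2248). NID2 (nidogen) and SMOC2 rose in recovery against FDM at 4 h, with means of 8.48 ± 10.7 and 5.97 ± 7.32 CPM (SD, n = 3), with SDs larger than the means, where 0.311% of all genes rose. Without recovery replicate 2, the library with the highest vessel score, NID2 had 0.46 (adjusted p = 0.9442) and SMOC2 0.64 (adjusted p = 0.9189), and each call was also lost without any of 3 (NID2) or 4 (SMOC2) FDM libraries and with the vessel score as a term (adjusted p = 0.1153 and 0.1438). No other gene of the list passed in the main comparisons.

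Of 26 collagen-processing genes tested, COLGALT2, which adds galactose to collagen, fell with pirenzepine by 0.55 at both times (SE 0.14 each). No other passed in those comparisons, where 0.699% of all genes fell at 4 h and 0.400% at 24 h. Each COLGALT2 call was lost without any of 6 of the 8 libraries (adjusted p up to 0.09144 and 0.1835), and that at 24 h also with the vessel score as a term (-0.50, adjusted p = 0.05778). Of 18 matrix-turnover genes tested, MMP15 rose with ADTN at 4 h by 0.47 ± 0.11, a call lost without any of 5 of the 8 libraries and with the vessel score as a term (0.40, adjusted p = 0.1938). Of all genes 0.419% rose with ADTN at 4 h. ADAMTS1 rose in recovery against FDM at 4 h by 1.25 ± 0.28, from 11.5 ± 2.22 CPM (n = 4) to 27.6 ± 23.7 CPM (SD, n = 3), with 1 recovery library at 54.9 CPM. Of all genes 0.311% rose in that comparison. Without recovery replicate 2 the ADAMTS1 value was 0.27 (adjusted p = 0.9213), and the call was also lost without any of 3 FDM libraries and with the vessel score as a term (1.11, adjusted p = 0.08418).

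On the vessel score, with which 5.61% of all genes rose, 10 of the 27 other matrix genes did, among them TINAGL1 by 1.36 ± 0.10 and FBLN5 by 1.19 ± 0.083, with 5 of the 26 processing genes, 4 of the 18 turnover genes and 9 of the 23 linking genes. On the pigment score, with which 2.36% of all genes rose, 3 of the 27 did (THBS1, NID1 and FBLN1), with 2 of the processing genes, 2 of the turnover genes, TIMP3 by 0.44 ± 0.038 and RECK by 0.20 ± 0.043, and 2 of the linking genes.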

How the data were processed

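The deposited file holds raw counts per transcript and library, which the authors made from paired reads of stranded libraries, per the labels' protocols; transcript lengths and positions are listed in it (a unit other than counts). Per the submitters' processing notes the tools were HISAT2 2.1, Trimmomatic 0.36, HOMER, limma and edgeR, and the genome build was galGal5. How the counting treated strand is not given in these sources. No symbol is attached to 39.5% of entries, which hold 11.5% of counts.

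The transcript with the largest total was taken per symbol. Genes passed filterByExpr (minimum count 10, minimum total 15), and edgeR 4.0.16 (R 4.3.3; TMM scaling, robust quasi-likelihood test) was fitted to 54 libraries with 14 group means. P-values are two-sided and Benjamini-Hochberg adjusted over 15746 genes at a threshold of 0.05. SEs were derived as |log2 change| over the root of the F statistic. CPM values are TMM-scaled, and scores are mean log2 CPM with a prior count of 1. Alternatives used DESeq2 1.42.0, other scaling, filters, samples and covariates. For called genes of the matrix and linking protein lists (not the cell markers), leaving out each library and adding the vessel score were chosen after seeing the data. The scripts were checked on simulated data.

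The members and lists were chosen with earlier results of these data known. Named genes were 15 followed genes (COL2A1 among them, not analysed here), every called gene (up to 8 in each direction), the extremes of each role, the 10 largest SDs and up to 4 called genes per list; others were named after their values were seen. Of the 65 symbols, 64 are in the RefSeq gene table. No sequence is printed here.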

Additional observations from a re-analysis of the deposited data

Results flagged for a closer look

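A single library stood far from the others of its group, by Dixon's criterion for groups of 4, in 28 of 216 tests over 18 genes. For independent, normally spread values chance gives about 1 in 20. The tests share libraries and some of the genes move together, so the 28 cannot be set against that rate. Values are CPM, with no explanation tested.

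TPMPA at 4 h replicate 1 was high for COL4A1 (152), COL4A2 (70.5), COL18A1 (115, where the nearest other library had 18.2) and LAMB1 (9.64). Pirenzepine at 24 h replicate 1 was high for COL4A1 (100), COL4A2 (44.3), COL18A1 (121, nearest other 11.8), COL1A2 (14.6), LAMA4 (49.2) and ITGA6 (82.2). FDM at 4 h replicate 1 was high for COL4A1 (20.6) and LAMC1 (108). ADTN at 4 h replicate 4 was low for COL4A1 (12, nearest other 111) and LAMB1 (1.67). All these libraries but the last have the highest vessel score of their group, and the last has the lowest.

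COL1A2 was also high in atropine at 24 h replicate 2 (6.02), pirenzepine at 4 h replicate 1 (2.98) and recovery at 24 h replicate 3 (65.2). COL9A1 was high in pirenzepine at 4 h replicate 1 (11.6) and low in recovery at 24 h replicate 2 (6.82). LAMA4 was low in recovery at 24 h replicate 1 (35.3).

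Among integrins, ITGA1 was high in FDM at 24 h replicate 2 (18.4), ITGA2 in ADTN at 4 h replicate 3 (69.8), ITGA4 in TPMPA at 24 h replicate 4 (58.7), ITGAV in FDM at 4 h replicate 4 (153), ITGB5 in atropine at 4 h replicate 1 (133) and ITGB8 in FDM at 24 h replicate 3 (111). ITGA6 was low in FDM at 24 h replicate 1 (53.8) and ITGB8 in recovery at 24 h replicate 1 (93.3).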

How the results depend on the processing

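Counts of called genes among the 63 kept within 1.5 times of the reported ones with DESeq2's size factors in edgeR, with no filter on low counts, with log2 total count as a term and, for the vessel slope, with a score of 5 vessel genes. With the vessel score as a term atropine at 4 h had 2 calls, TPMPA at 4 h 1 and recovery against untreated at 24 h 0; with the pigment score added these were 2, 0 and 0, and pirenzepine at 4 h had 1. A term for small RNAs gave 2 for atropine at 4 h. Fits restricted to the groups under comparison gave 3 calls for FDM against untreated at 24 h, 2 for pirenzepine at 4 h (ITGA1 and LAMA1, in place of ITGA2 and ITGB5), 0 for pirenzepine at 24 h, 8 for TPMPA at 24 h, 7 for recovery against untreated at 24 h and 1 for its 24 h change minus 4 h change. DESeq2 gave 3 for atropine at 4 h, 1 for ADTN at 4 h, 3 and 5 for recovery against untreated at 4 h and 24 h, 2 for recovery against FDM at 4 h and 1 for the TPMPA 24 h change minus 4 h change. The cause of these differences was not tested. Shares of all genes called are given above for some of these settings. For the other settings in this section, those below included, they are not reported here. Those counts therefore cannot be told apart from a general rise in calls.

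Replicate numbers were not taken as pairs, as in 0 of 12 comparisons did all same-number correlations exceed 0.1 (15 of 45 pairs did, range -0.101 to 0.402). For replicate 1 at 4 h they ran from 0.166 to 0.402, and whether replicate numbers mark a batch was not tested. The replicate block gave 1 call for atropine at 24 h, 3 for ADTN at 4 h, 1 for TPMPA at 4 h and 6 for recovery against untreated at 24 h.

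Leaving out each library in turn gave 1 to 2 calls for atropine at 4 h, 0 to 2 for pirenzepine at 4 h, 0 to 3 for pirenzepine at 24 h, 0 to 6 for ADTN at 4 h, 0 to 1 for TPMPA at 4 h, 0 to 3 for recovery against untreated at 4 h, 0 to 1 at 24 h, 0 to 4 for recovery against FDM at 4 h, 20 to 26 on the vessel score and 7 to 9 on the pigment score. Atropine at 4 h had 2 without FDM replicate 3 (COL20A1 added) or atropine replicate 3 or 4 (ITGB4 added). Pirenzepine at 24 h had 3 without pirenzepine replicate 1 (COL18A1 and ITGB5 added). ADTN at 4 h had 1 without FDM replicate 1 (ITGB4), and TPMPA at 4 h had 1 (COL5A1) without FDM replicate 1 or TPMPA replicate 4. Recovery against FDM at 4 h had 4 without recovery replicate 1 and 3 without replicate 3, with COL14A1, COL1A2 and COL6A2 in both.

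The vessel slope called 0 genes in the 27 lower-score and 15 in the 27 higher-score libraries, and the pigment slope 3 in each. In the lower-score set the slopes of COL5A1 (-0.054) and ITGA9 (-0.12) changed sign, with adjusted p of 0.9841 and 0.9823. Differences in low genes such as COL1A1, at 0 counts in 23 libraries, are limited by depth.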
